A study of Mus musculus with 34 samples.

Results

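Contextual fear conditioning (CFC) was compared with the home cage in parvalbumin (PV) interneurons in 6 of the 34 libraries of the series, 3 CFC and 3 home cage libraries of batch 3, which were chosen by their labels and are described over all genes. All 6 libraries carry the genotype PV:Cre/Ribotag in mice labelled C57/BL6, and the extraction protocol gives an age of p60 (postnatal day 60). Cre recombinase comes from the Pvalb gene, and the RiboTag allele puts an HA tag on the ribosomal protein Rpl22 in cells with Cre, so that ribosomes and the messenger RNA on them can be pulled down. Recombination is permanent, so cells that expressed Pvalb at an earlier age also stay tagged. CFC teaches an animal to link a place with a foot shock and was the one labelled difference between the groups. How long after conditioning tissue was taken, and whether animals were pooled, the sources used here do not give. The labels name cortex and hippocampus, and the extraction protocol names cortices only. A further group of batch 3 holds 3 home cage libraries with the genotype PV:Cre/Nr4a1-f/f/Ribotag, called cKO here, in which Pvalb-driven Cre acts on a floxed Nr4a1 allele. For comparison, batch 4 gave 3 CFC and 3 home cage libraries of somatostatin (SST) interneurons (Sst:Cre/Ribotag), and batch 1 gave PV:Cre/Ribotag libraries after saline (n = 3) or the convulsant pentylenetetrazol (PTZ, n = 4). The age of p60 stands for all of these groups, cKO and batch 1 included.

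PV interneurons are fast-firing GABA cells that inhibit the cell bodies and first axon segments of pyramidal neurons, and their activity takes part in the forming and recall of fear memories. When a neuron fires, calcium entry activates kinases that phosphorylate the transcription factors CREB and SRF, and these switch on immediate early genes within minutes. The first wave holds transcription factors such as Fos, Egr1 and Nr4a1 and effectors such as Arc and the phosphatase Dusp1, and a later wave holds genes for secreted peptides, channels and synaptic proteins. Nr4a1 encodes an orphan nuclear receptor of this first wave.

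CREB binds the cyclic AMP response element TGACGTCA and its first part, TGACG. The 250 bases before the RefSeq start site (GRCm38.p6) are printed for 4 of the rapid genes described below. Each runs 5′ to 3′ along the gene's strand. Every match to TGACG on either strand (read as CGTCA where it lies on the other strand) is in capitals. Nr4a1 spans chr15:101266596-101266845 (plus strand), Fos chr12:85473640-85473889 (plus strand), Btg2 chr1:134079156-134079405 (minus strand) and Dusp1 chr17:26508473-26508722 (minus strand).
Nr4a1: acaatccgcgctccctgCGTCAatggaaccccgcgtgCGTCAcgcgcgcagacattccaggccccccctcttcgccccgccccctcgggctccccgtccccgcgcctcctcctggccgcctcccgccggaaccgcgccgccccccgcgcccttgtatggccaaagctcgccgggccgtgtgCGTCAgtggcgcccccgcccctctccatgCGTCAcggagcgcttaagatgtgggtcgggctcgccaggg
Fos: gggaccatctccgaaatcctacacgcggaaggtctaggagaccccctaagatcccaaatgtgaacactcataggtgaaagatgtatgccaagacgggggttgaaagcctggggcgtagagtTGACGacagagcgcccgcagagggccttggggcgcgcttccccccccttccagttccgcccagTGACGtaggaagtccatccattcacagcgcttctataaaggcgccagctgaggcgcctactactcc
Btg2: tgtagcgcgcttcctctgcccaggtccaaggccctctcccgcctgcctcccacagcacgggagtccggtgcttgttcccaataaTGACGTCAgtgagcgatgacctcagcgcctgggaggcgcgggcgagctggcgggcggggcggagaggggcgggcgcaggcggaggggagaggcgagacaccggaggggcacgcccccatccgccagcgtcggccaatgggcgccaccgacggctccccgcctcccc
Dusp1: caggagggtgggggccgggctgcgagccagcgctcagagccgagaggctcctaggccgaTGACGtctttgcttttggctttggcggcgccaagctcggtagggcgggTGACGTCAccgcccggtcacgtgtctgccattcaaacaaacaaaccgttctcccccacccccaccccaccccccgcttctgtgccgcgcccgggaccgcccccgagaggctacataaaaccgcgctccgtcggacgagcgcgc
Nr4a1 had 4 matches, Fos 2, Btg2 2 and Dusp1 3, and in Btg2 and Dusp1 the full TGACGTCA accounts for 2 of them because it reads the same on both strands. Among the rapid transcription factors, 21 had a promoter in the table, and 15 of these (71.4%) held TGACG. Egr1 was not among the 21. Nr4a2 and Nr4a3, whose CFC and home cage levels overlapped, had 4 matches each. Junb had 1 match and Jun had 0, though neither overlapped between the groups. The full TGACGTCA lay in 0 of these 21 (Btg2 and Dusp1 are listed as effectors) and in 2.89% of the promoters of tested genes. For TGACG the share was 26.9% of 11005 promoters of tested genes and 17.9% of all 27025 promoters. The early growth response (EGR) site GCGGGGGCG lay in 6 of the 21 (28.6%), among them Nr4a1, and in 5.02% of the promoters of tested genes. The Nr4a1-binding element AAAGGTCA lay in 0 of the 21 and in 0.781% of the promoters of tested genes. These matches describe letters in this window and say nothing of which factor was bound.

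Total counts ran from 22346957 to 23558079 in the CFC libraries and from 10096035 to 20353741 in the home cage libraries. Home cage replicate 3 stood apart: it had the fewest counts, its share of reads from the rRNA gene CT010467.1 was 4.6% (1.09% to 2.45% in the other 5), and its log2 levels correlated at 0.92 to 0.932 with the other 5 libraries, whose highest correlations were 0.957 to 0.975. Libraries of 1 group differed by more than counting noise in every pair, and none were identical. Levels are given as CPM, read counts scaled to library size with edgeR's trimmed mean of M-values (TMM). Differences are log2 values of edgeR with their standard error (SE) and p-values adjusted over all 15150 genes tested. Nothing in the labels ties a library to its own animal, and the p-values therefore measure a spread between libraries that may be technical. RNA was taken from many cells at a time, so fewer cells of a type and less RNA per cell cannot be told apart.

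No gene passed an adjusted p of 0.05 for CFC against home cage (0 of 15150 in each direction, 0.0%). The values of that comparison below are therefore levels and differences, not called changes. At an unadjusted p under 0.05, 1458 genes (9.62%) were higher and 1376 (9.08%) lower after CFC. In 2054 genes (13.6%) all 3 CFC libraries lay above all 3 home cage libraries, and in 1729 (11.4%) all lay below. By sign alone 51.8% of genes were above 0 and 48.2% below. The count of called genes turned on the tool and on 1 library. DESeq2 called 221 genes higher (3.11% of 7109 with an adjusted p) and 385 lower (5.42%), limma voom called 1 higher. The edgeR test called 553 higher (2.06% of 26819) and 479 lower (1.79%) with no filter on low counts, and limma voom with sample quality weights called 241 (1.59%) and 283 (1.87%). The same edgeR test without home cage replicate 1 called 738 higher (4.7% of 15700) and 743 lower (4.73%). Without home cage replicate 3 it called 2 higher (0.0128% of 15659), Nr4a1 and 2610507I01Rik.

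Rapid transcription factors such as Nr4a1, Egr1 and Fos were higher in every CFC library than in any home cage library. Of 27 tested members, 9 (33.3%) were higher after CFC at an unadjusted p under 0.05 and 0 were lower, against 9.62% and 9.08% of all genes. The same 9 had CFC libraries above every home cage library. Over the list 21 members were above 0 and 6 below, with a median of 0.36 against 0.02 over all genes (0.21 without CFC replicate 3). The list and its members were chosen with earlier results of these data known.

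Nr4a1 (chromosome 15, 101254269 to 101274795) was at 5.07, 7.43 and 11.7 CPM in the home cage libraries and at 56.9, 56.1 and 64.3 CPM in the CFC libraries. The lowest CFC library thus stood well above the highest home cage library, and the spread within CFC was small. The means of 8.06 ± 3.35 CPM (SD, n = 3) and 59.1 ± 4.53 CPM differed by a factor of 7.33, and the log2 difference of 2.90 ± 0.37 had an adjusted p of 0.0594. Fitted on the CFC and home cage libraries alone it passed (adjusted p = 0.0105), as it did with DESeq2 (6.31e-13) and limma voom (0.012). Leaving out any 1 CFC library, or home cage replicate 2, gave adjusted p-values of 0.237 to 0.35 at log2 differences of 2.84 to 2.94.

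Egr1, a zinc finger factor of the first wave, was at 66.6, 48.9 and 66.6 CPM in the home cage and at 158, 196 and 182 CPM after CFC. Fos, a subunit of the AP-1 dimer, was at 28.9, 17.6 and 36.2 CPM against 78.2, 75 and 93.5 CPM. Both had about the same separation, with mean levels 2.94 and 2.98 times as high after CFC and log2 differences of 1.56 ± 0.30 and 1.58 ± 0.45 (adjusted p = 0.186 for each, edgeR). Junb, another AP-1 subunit, was at 26.3, 23.8 and 34.8 CPM against 55.4, 49.2 and 56.1 CPM (log2 0.92 ± 0.20). Exons of Junb overlap those of Prdx2 on the opposite strand, and no source used here gives the strand setting of the counting, so reads of the 2 genes may be mixed.

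Npas4, a factor induced by calcium entry, was at 0.926, 1.58 and 0.982 CPM in the home cage and at 1.96, 6.56 and 8.38 CPM after CFC. CFC replicate 1 was close to the home cage libraries and the other 2 were well above them. The remaining 4 of the 9 were Ier2 (log2 0.61), Egr4 (0.87), Jun (0.38) and Atf3 (1.63), of which Atf3 stayed under 2 CPM in every CFC library, at 0.774 to 1.61 CPM. Members of the same families did not all separate. Nr4a2 was at 5.7, 1.38 and 4.15 CPM against 3.46, 4.78 and 6.15 CPM, Nr4a3 at 2.24, 2 and 8.07 CPM against 4.24, 5.03 and 5.45 CPM, and Egr3 at 2.05, 1.17 and 6 CPM against 0.866, 3 and 4.58 CPM. Fosb (0.244 to 2.51 CPM in the home cage, 2.23 to 3.47 CPM after CFC) and Egr2 (log2 1.29) also overlapped between groups.

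Rapid effectors were higher after CFC in 6 of 23 tested members (26.1%) at an unadjusted p under 0.05 and lower in 0, against 9.62% and 9.08% of all genes, with a median of 0.26. Arc, which drives removal of AMPA receptors from synapses, was at 11.1, 21.7 and 28.9 CPM in the home cage and at 44.1, 53.8 and 80.8 CPM after CFC (log2 1.55 ± 0.38). Btg2, an antiproliferative cofactor, was at 3.56, 4.33 and 7.42 CPM against 11.1, 13.6 and 19.1 CPM (log2 1.54 ± 0.36). Every CFC library lay above every home cage library for both genes, though both groups varied by more than 1.5 times within themselves.

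Dusp1, a phosphatase that switches off MAP kinases, was at 127, 145 and 129 CPM in the home cage and at 227, 215 and 199 CPM after CFC (log2 0.67 ± 0.18), with no overlap. Its exons overlap Ergic1 on the opposite strand. Plk2, a kinase that scales down synapses, was at 64.1, 40.7 and 41.8 CPM against 89.3, 78 and 81.5 CPM (log2 0.76 ± 0.18). Sgk1 and Dusp6 completed the 6, with log2 differences of 0.38 and 0.60. The adjusted p was 0.186 for Arc, Btg2, Dusp1 and Plk2 (edgeR). DESeq2 called Arc, Plk2 and Dusp1, and none of the 4 passed with the CFC and home cage libraries fitted alone. The stress-response genes Gadd45b and Gadd45g, also in the first wave, overlapped between groups, with log2 differences of -0.19 and -0.24.

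**Figure D1:**
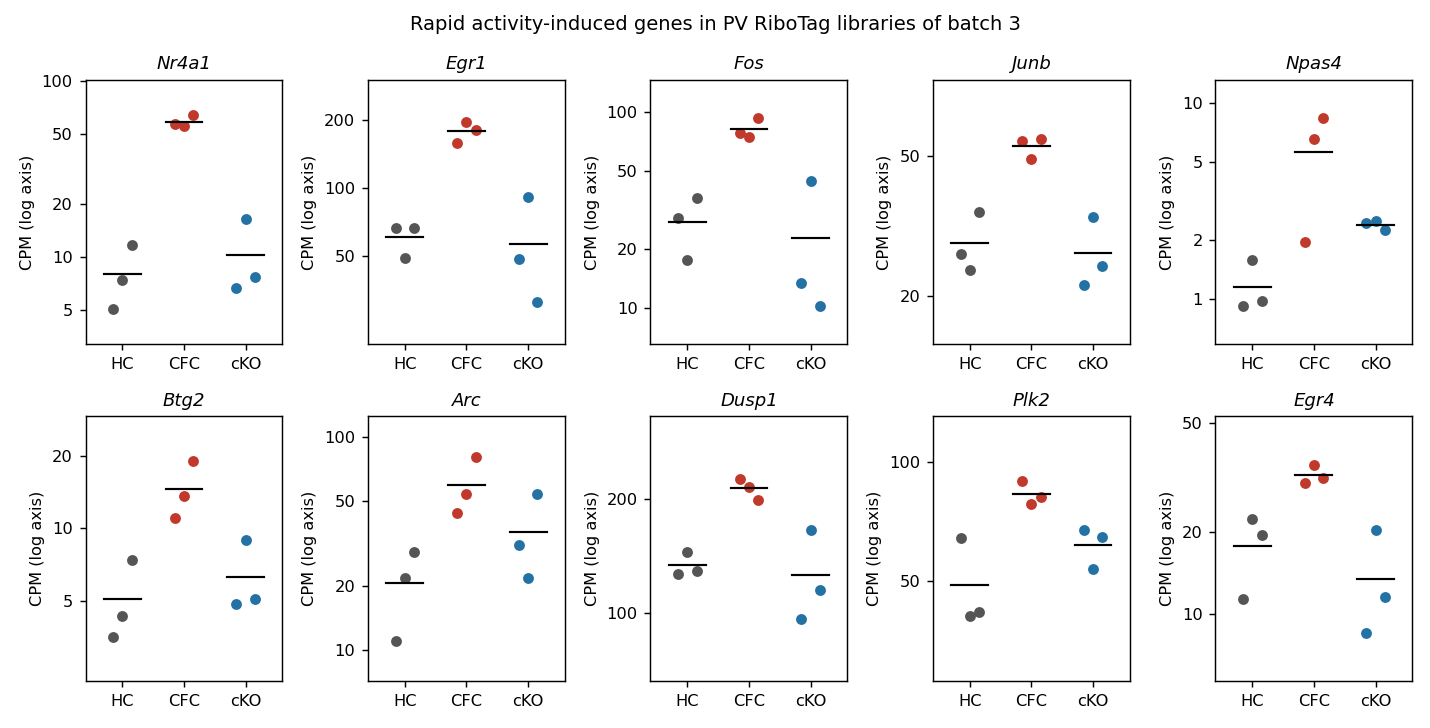
CPM of 10 rapid genes on log axes in home cage (HC), CFC and cKO libraries of batch 3, 1 point per library, with lines at the group means. For Nr4a1 the 3 CFC points sit between 56.1 and 64.3 CPM, above home cage and cKO points that reach 11.7 and 16.5 CPM.

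The cKO libraries give another set of home cage levels, measured in the same table. They share the home cage libraries as controls with CFC, so the 2 differences are set side by side and not tested against each other. Of the rapid genes in the cKO libraries, Egr1 was at 48.4, 91.1 and 31.4 CPM, Fos at 13.4, 44.3 and 10.2 CPM, and Dusp1 at 96.5, 166 and 115 CPM. cKO replicate 2 was the highest of its group for each of these 3. Arc was higher, at 31.3, 21.7 and 53.8 CPM in cKO (log2 0.81, adjusted p = 0.286, edgeR), so that 2 libraries lay above every home cage library and 1 of them inside the CFC range. The median of the rapid transcription factors was 0.07 in cKO and 0.36 after CFC, and that of the rapid effectors 0.25 and 0.26. Nr4a1 itself was at 6.68, 16.5 and 7.65 CPM. Counts cover the whole gene, so these levels do not check the deletion.

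Fut10, Parp1, Vars and Simc1 were higher than in the home cage both after CFC and in the cKO libraries. Fut10, a fucosyltransferase gene (chromosome 8, 31187331 to 31261738), was at 1.95, 0.826 and 2.18 CPM in home cage libraries, at 8.43, 10 and 8.71 CPM after CFC and 8.25, 7.11 and 8.11 CPM in cKO. Parp1, which adds ADP-ribose chains at DNA breaks, was at 56.5, 46.2 and 43.3 CPM, then 134, 100 and 97.2 CPM, then 127, 81.9 and 76.1 CPM. In both genes the home cage group was the one that stood apart. Vars, the valine tRNA synthetase, had log2 differences of 0.88 ± 0.16 for CFC and 1.10 for cKO, and Simc1 had 1.38 ± 0.26 and 1.28. For CFC the adjusted p was 0.124 for Fut10 and 0.186 for Parp1, Vars and Simc1 (edgeR). For cKO against home cage Fut10 (0.0297) and Vars (0.0202) passed, and Parp1 (0.115) and Simc1 (0.0975) did not. Exons of Simc1 overlap 4833439L19Rik on the opposite strand.

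Others of the 12 genes with the smallest p on the higher side were Kifc2, Ttpal, Rasa3, Robo2, Mmp17 and Irf2bpl, each with a log2 difference of 0.75 to 1.07. Robo2, a receptor for the axon guidance cue Slit, was at 31.3, 25.9 and 25.5 CPM in the home cage and at 56.3, 54.5 and 40.3 CPM after CFC. Rasa3, which turns off Ras and Rap, was at 16.5, 10.9 and 9.06 CPM against 24.8, 27.6 and 25.1 CPM. The groups did not overlap in either gene, and the cKO levels (38.1 to 52.2 CPM and 22.6 to 29.2 CPM) lay above the home cage levels of both. Coch, a secreted matrix protein, had a log2 difference of 2.36 ± 0.71. It was at 3.02, 4.33 and 1.64 CPM in the home cage and at 15.7 CPM in all 3 CFC libraries, but ran from 3.82 to 53.2 CPM in cKO. Kifc2 overlaps Cyhr1 on the opposite strand.

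On the lower side, Clec2l, a lectin-like membrane protein, was among the 12 genes with the smallest p. It was at 143, 161 and 160 CPM in the home cage and at 88.5, 91.3 and 87.3 CPM after CFC (log2 -0.80 ± 0.15), with no overlap and little spread in either group. Nr2f1, a nuclear receptor that patterns the cortex, was at 30.1, 37.6 and 45.3 CPM against 22.7, 17.1 and 17.1 CPM (log2 -0.99 ± 0.20). Dhrs3, which converts retinaldehyde back to retinol, was at 43.2, 41.6 and 44.6 CPM against 26.5, 31.1 and 24.2 CPM. The cKO libraries had Dhrs3 at 47.8 to 52.6 CPM, above both other groups. Hist3h2ba, a histone H2B gene, was at 102, 168 and 126 CPM in home cage libraries, at 70.4, 34.6 and 28.9 CPM after CFC and 17.7, 38.4 and 25.9 CPM in cKO. For CFC the adjusted p was 0.186 for each of these 4 genes (edgeR). For cKO against home cage Hist3h2ba passed (log2 -2.27, adjusted p = 0.0266, edgeR), and Clec2l (0.256), Nr2f1 (0.157) and Dhrs3 (0.402) did not.

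Npy, Cort and Cck, genes for neuropeptides, lay lower in every CFC library than in any home cage library, as did 11.4% of all genes. Npy, the neuropeptide Y gene, was at 191, 215 and 379 CPM in the home cage and at 138, 122 and 131 CPM after CFC (261 ± 103 and 130 ± 7.64 CPM, SD, n = 3 each), with an adjusted p of 0.186 (edgeR). Cort, which encodes cortistatin, a relative of somatostatin, was at 32.5, 45.1 and 90.1 CPM against 20, 16.8 and 27.9 CPM (log2 -1.36 ± 0.37), and Cck was at 254, 339 and 391 CPM against 206, 195 and 210 CPM (log2 -0.68). Home cage replicate 3 had the highest level of all 3 genes, and home cage replicate 1 lay closest to CFC. Tac1, the substance P precursor, was at 235, 183 and 236 CPM against 167, 172 and 182 CPM, where the nearest libraries of the groups almost met. Sst overlapped between the groups, at 125, 215 and 464 CPM against 202, 108 and 194 CPM (log2 -0.67 ± 0.54, adjusted p = 0.522, edgeR). So did Vip, at 2.19 to 3.49 CPM against 1.44 to 4.29 CPM. In the cKO libraries Npy reached 365 to 524 CPM and Cort 66.6 to 133 CPM, on the other side of the home cage mean, whereas Cck was at 210, 297 and 266 CPM (log2 -0.35), on the same side as after CFC.

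Delayed activity-regulated genes were mixed: 6 of 42 tested members (14.3%) were higher and 3 (7.14%) lower at an unadjusted p under 0.05, near the 9.62% and 9.08% of all genes, with a median of 0.11 (0.19 without home cage replicate 1 and 0.07 without replicate 2). Nefm, a neurofilament subunit, was at 305, 292 and 254 CPM in the home cage and at 442, 453 and 400 CPM after CFC, and Rasgrp1, an activator of Ras, was at 74.9, 72.7 and 58.2 CPM against 87.9, 110 and 97.3 CPM. Exons of Nefm overlap those of Nefl on the opposite strand. Crh, corticotropin-releasing hormone, was low, at 2, 2.68 and 5.24 CPM against 0.774, 0.592 and 1.69 CPM. Bdnf (log2 0.09), Nptx2 (0.03), Vgf (0.04) and Homer1 (0.34) overlapped between the groups. Whether the delayed list differs from the rapid lists was not tested.

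PV identity genes lay on both sides of 0. Of 24 PV marker genes, 3 were higher and 3 lower (12.5% each way) at an unadjusted p under 0.05, near the 9.62% and 9.08% of all genes. The median of 0.10 was 0.01 without home cage replicate 3, 0.05 without home cage replicate 2, 0.04 without CFC replicate 2 and 0.15 without home cage replicate 1. Pvalb was at 155, 190 and 163 CPM in the home cage and at 179, 143 and 166 CPM after CFC (log2 -0.06 ± 0.58, adjusted p = 0.969, edgeR). The cKO libraries, which enter the same estimate of the spread, stood at 1053, 1346 and 156 CPM. Gad1, which makes GABA, was at 3476, 2865 and 1948 CPM in the home cage and at 4261, 4299 and 3627 CPM after CFC, while Slc32a1, which loads GABA into vesicles, was at 163, 207 and 291 CPM against 140, 143 and 124 CPM. The 2 genes thus had opposite signs (log2 0.56 ± 0.18 and -0.70 ± 0.19), and in both of them home cage replicate 1 lay nearest to CFC. The GABA-degrading enzyme Abat (log2 0.41) was on the side of Gad1, and Gad2 was level (0.08).

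The PV label was set against the SST libraries of batch 4, whose levels were scaled in their own table. Syt2, a vesicle calcium sensor of PV cells, was at 478 to 682 CPM in the 6 PV libraries and at 16.6 to 65.3 CPM in the 6 SST libraries, and the fast potassium channel Kcnc1 at 604 to 860 CPM against 161 to 194 CPM. Sst was at 108 to 464 CPM against 5512 to 6084 CPM, and the SST marker Elfn1 at 4.15 to 6.87 CPM against 136 to 189 CPM. Pvalb itself did not follow: it was at 143 to 190 CPM in the PV libraries and at 87.3 to 478 CPM in the SST libraries. Other PV markers went both ways. Slc32a1 was higher in every PV library (124 to 291 against 61 to 81.8 CPM). Lhx6 (137 to 210 against 301 to 353 CPM) and Gad2 (407 to 465 against 873 to 1030 CPM) were higher in every SST library. Kcns3 (45 to 99.6 against 48.8 to 78.6 CPM) and Gad1 (1950 to 4300 against 1660 to 2340 CPM) overlapped. Batch and cell type coincide here and cannot be told apart. Markers of other cells were present at low levels in both groups: Slc17a7 of excitatory neurons at 58.3 to 88.2 CPM, Gfap of astrocytes at 12.9 to 58.6 CPM, and Htr3a of 1 class of interneurons at 0 in 2 home cage libraries and at most 2.31 CPM elsewhere.

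Summed over lists, excitatory markers were at 1071 to 1375 CPM in the home cage and at 1013 to 1173 CPM after CFC, and vascular and mural markers at 214.9 to 267.2 CPM against 107 to 275.5 CPM. Both ranges overlapped. The markers of VIP interneurons and of others from the caudal ganglionic eminence summed to 355.8, 437 and 505.2 CPM in home cage libraries against 303.6, 294.2 and 319.2 CPM, and SST markers to 1396, 1249 and 1693 CPM against 1243, 1160 and 1228 CPM. In both sums every CFC library lay below every home cage library, though the nearest SST sums were 1243 and 1249 CPM. Cck is a member of the VIP list and has the largest part of its sum. At an unadjusted p under 0.05, 2 of 17 VIP list members were higher and 2 lower (11.8% each). Of 18 SST markers 0 were higher and 1 (5.56%) lower, against 9.62% and 9.08% of all genes. The median of the SST markers was -0.16, and 0.10 without home cage replicate 1. Of the astrocyte markers 3 of 16 (18.8%, against 9.62% of all genes) were higher at an unadjusted p under 0.05, among them Aqp4, the astrocyte water channel, at 3.22, 1.79 and 1.53 CPM against 6.7, 5.16 and 11.4 CPM. The summed astrocyte level of 740.3 to 891.9 CPM in the home cage held the whole CFC range of 858.1 to 883.4 CPM. The part of other cells in the results was not tested.

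Circadian clock genes were higher after CFC in 5 of 19 (26.3%) and lower in 0 at an unadjusted p under 0.05, against 9.62% and 9.08% of all genes, with a median of 0.26 (0.16 without CFC replicate 1), and 3 were higher without CFC replicate 2 or 3. Cry2, a repressor of the clock, was at 121, 112 and 94.4 CPM in the home cage and at 143, 159 and 146 CPM after CFC, and Tef at 168, 165 and 163 CPM against 229, 208 and 239 CPM. Per1, which is both a clock gene and a CREB target, was level (log2 -0.06). Heat shock proteins and chaperones had 7 of 22 (31.8%) higher and 2 (9.09%) lower, against the same shares, and 2 or 3 higher without CFC replicate 1 or 2, or home cage replicate 2 or 3. Hspa5, the chaperone of the endoplasmic reticulum, was at 612, 473 and 437 CPM against 689, 665 and 628 CPM, whereas Hspe1, a short mitochondrial cochaperone gene, was at 200, 178 and 403 CPM against 149, 142 and 157 CPM. Voltage-gated potassium channels had 3 of 29 (10.3%) higher and 1 (3.45%) lower, with 0 higher without CFC replicate 2 and 9 without home cage replicate 1. Their median was 0.33, and 0.20 without CFC replicate 2, with Kcnc1 at -0.29 and its partner Kcnc2, which missed that p, at 0.47. GABA-A receptor subunits had 0 of 12 in either direction. The count over all genes at that p, both directions together, also moved with the library left out. It was 2834 of 15150 with every library and 4396 of 15700 without home cage replicate 1. Without 1 of the other libraries it ran from 1674 of 15660 (CFC replicate 2) to 2250 of 15673 (home cage replicate 2). Of 16 glucocorticoid-responsive genes 2 (12.5%, Sgk1 and Fkbp5) were higher and 1 (6.25%, Mt1) lower at an unadjusted p under 0.05. These shares were near the 9.62% and 9.08% of all genes, and the median was -0.02. Tsc22d3 (log2 -0.02) and Klf9 (0.16) were level. Exons of Tef, Cry2, Hspe1, Slc32a1, Nr2f1 and Jun overlap other genes on the opposite strand, so their counts carry the same doubt as those of Junb.

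**Figure D2:**
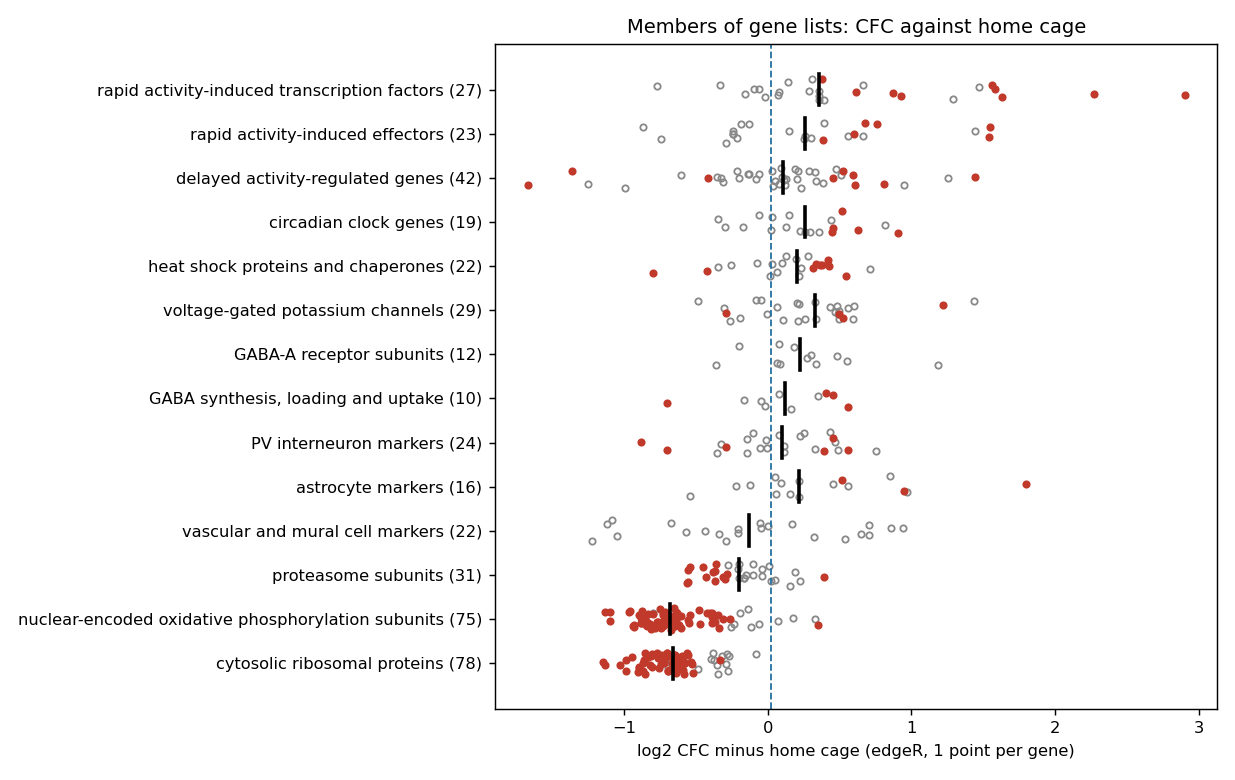
Log2 difference between CFC and home cage for the members of 14 lists, 1 point per gene, filled red at an unadjusted p under 0.05, with black bars at list medians and a dashed line at the median of all genes (0.02). Rapid genes reach 2.90 on the right, and ribosomal protein and oxidative phosphorylation genes lie on the left with medians of -0.66 and -0.68.

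Genes of the ribosome and of the respiratory chain had mostly lower values after CFC. All 78 tested cytosolic ribosomal proteins had values below 0, 64 of them (82.1%) at an unadjusted p under 0.05, with a median of -0.66. Among nuclear-encoded subunits of oxidative phosphorylation 71 of 75 were below 0, 64 of them (85.3%) at that p, with a median of -0.68. Over all genes 9.08% were lower at that p. The cKO libraries, from unconditioned mice, had medians of -0.56 for both lists against the same home cage libraries, with summed levels of 7058 to 9709 CPM and 47250 to 61530 CPM. None passed the adjusted threshold, and DESeq2 called 35 and 49 of them lower, against 5.42% of all genes with an adjusted p. Ribosomal protein genes have many near-identical processed copies in the genome, so their counts are uncertain.

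These sets depended on which home cage library was used. Summed ribosomal protein levels stood at 8478, 11780 and 16880 CPM in the home cage and at 8581, 7589 and 7840 CPM after CFC, so home cage replicate 1 lay inside the CFC range and replicate 3 above every other library. Summed oxidative phosphorylation levels were 59370, 75600 and 90630 CPM against 57310, 51990 and 50980 CPM. Without home cage replicate 3 the medians were -0.37 and -0.43, and 14 ribosomal protein genes and 49 oxidative phosphorylation genes were lower at an unadjusted p under 0.05. In that fit 1686 of 15659 genes had such a p in either direction, against 2834 of 15150 with every library. Without home cage replicate 1 the medians were -0.89 and -0.86, and 65 and 57 members were called lower at an adjusted p under 0.05 (edgeR), against 4.73% of all genes in that fit. Home cage replicates 2 and 3 also had the largest rRNA shares of the 6 libraries (2.45% and 4.6%). The part of RNA quality was not tested.

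**Figure D3:**
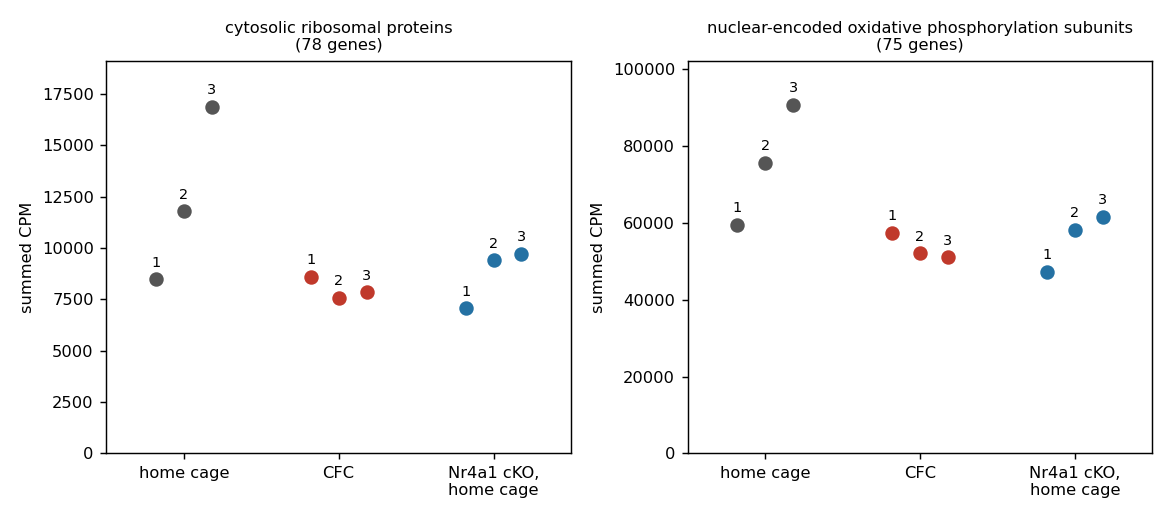
Summed CPM of ribosomal protein genes (left) and of nuclear-encoded oxidative phosphorylation subunits (right) in each library of batch 3, with replicate numbers above the points. Home cage replicate 1 lies close to CFC replicate 1 in both, and replicates 2 and 3 lie above every CFC library.

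Within oxidative phosphorylation, split at 2000 and 4000 bases of exon sequence, the shortest genes had the lowest median. All 46 members with up to 2000 bases of exon sequence were below 0 at an unadjusted p under 0.05 (median -0.73), against 4 of 10 members over 4000 bases (median -0.45, 6 below 0). The 19 members in between were all below 0, with a median of -0.43. Ndufa1, a small subunit of complex I with 419 bases of exon, was at 399, 618 and 850 CPM in the home cage and at 321, 313 and 321 CPM after CFC. Sdha, the flavoprotein of complex II with 4126 bases, was at 1007, 892 and 616 CPM against 1095, 1108 and 998 CPM, with the opposite sign (log2 0.35). Atp5b, the catalytic beta subunit of ATP synthase with 4237 bases, was level at 0.07. Sdha and Atp5b are both among the members over 4000 bases that were not below 0. Of the proteasome subunits 13 of 31 (41.9%) were lower at that p and 1 (3.23%) higher, against 9.08% and 9.62% of all genes, and 5 or 6 were lower without CFC replicate 2 or 3, or home cage replicate 2 or 3. In those fits 1674 to 2250 of all genes had that p in either direction, against 2834 with every library. Psmb5 with 899 bases was at -0.56 and Psmd2 with 4038 bases at 0.39, but Psmb1 with 4595 bases was at -0.45.

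Over all genes the values also differed by length. When the 15128 tested genes with a length were split into 5 equal parts by exon sequence, the median log2 difference was -0.40 in the shortest (56 to 2169 bases), -0.03, 0.10 and 0.18 in the next 3 and 0.18 in the longest. In the shortest part 20.8% of genes were above 0, and 21.6% were lower at an unadjusted p under 0.05. The 2928 genes of that part outside the ribosomal protein and oxidative phosphorylation lists still had a median of -0.38, with 78.5% below 0. Ribosomal protein genes had similar medians across length, -0.70, -0.60, -0.70 and -0.52 in the first 4 parts, which hold 49, 20, 7 and 2 of them. Oxidative phosphorylation genes had medians of -0.72, -0.48, -0.47, -0.72 and 0.33 in the 5 parts, which hold 50, 14, 8, 2 and 1 of them. Over 5 equal parts by GC content the medians ran only from -0.03 to 0.06. The exon sequence counts all annotated isoforms, so it overstates the length of the mature message for many genes.

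Single libraries carried this unevenly. The shortest part took 18%, 21.5% and 25.4% of counts in the home cage libraries, 16.9%, 15.8% and 16.6% in the CFC libraries, and 14.9%, 17.7% and 18.9% in cKO. The mean log2 level of the longest part lay above that of the shortest by 1.16, 0.85 and 0.77 in the home cage and by 1.26, 1.40 and 1.36 after CFC. Without home cage replicate 3, the median ratio of mean levels was -0.24 in the shortest part and 0.16 in the longest, and without replicate 1 it was -0.43 and 0.22. Several genes described as lower are short: Npy has 566 bases of exon, Cort 677, Hist3h2ba 614 and Clec2l 1428. Of the rapid transcription factors 7 of 27 (25.9%, median 0.61) also lay in the shortest part, as did 4 of 23 rapid effectors (17.4%, median -0.16). Fos has 2352 bases of exon, Nr4a1 3509 and Egr1 4484.

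**Figure D4:**
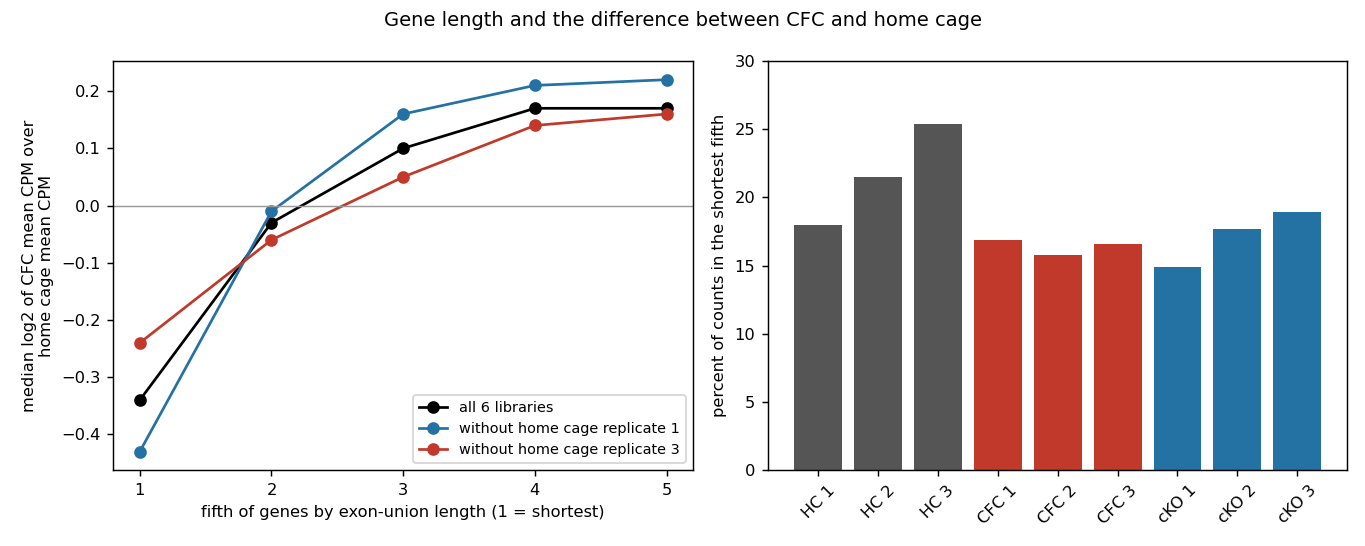
Left: median log2 ratio of mean CPM (CFC over home cage) in 5 equal parts of genes ordered by exon length, with all 6 libraries and without home cage replicates 1 or 3. Right: percent of counts in the shortest part per library, from 15.8 to 16.9 after CFC and from 18 to 25.4 in the home cage.

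Whether SST interneurons answered the same conditioning alike was asked in a joint fit of batches 3 and 4. Across 16081 genes, 0 differed between the PV and SST responses at an adjusted p of 0.05 (edgeR), 2452 had an unadjusted p under 0.05, and DESeq2 called 287. In this fit Nr4a1 was the 1 gene whose PV response passed on its own (log2 2.88 ± 0.35, adjusted p = 0.00505). In SST cells 7 responses passed: Egr1, Rhod, Junb, Dusp1, Nr4a1, Pdgfrb and Fos. The SST response of Nr4a1 was 2.46 ± 0.33 (adjusted p = 0.00906, edgeR), and the difference of 0.42 ± 0.46 was smaller than its error. SST libraries were at 23.5, 15.3 and 13.8 CPM of Nr4a1 in the home cage and at 85.8, 104 and 93.3 CPM after CFC, so the PV home cage level was the lower of the 2 by CPM.

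Fos and Egr1 had larger values in SST cells, with responses of 3.13 ± 0.50 and 2.31 ± 0.27 there against 1.56 ± 0.47 and 1.53 ± 0.27 in PV cells. The differences were -1.58 ± 0.66 for Fos (adjusted p = 0.277) and -0.77 ± 0.37 for Egr1 (adjusted p = 0.332, edgeR). Dusp1 differed by -0.57 ± 0.24 and Junb by -0.47 ± 0.27, while Arc (0.23), Btg2 (0.42) and Plk2 (0.45) lay on the other side. Over 31 rapid genes with a mean of at least 5 CPM in both tables, 11 had the larger response in PV and 20 in SST cells. Over all 16081 genes the split was 8125 and 7956. Without the limit on CPM it was 14 and 14 for rapid transcription factors and 9 and 14 for rapid effectors. The responses of rapid transcription factors had medians of 0.34 in PV and 0.39 in SST cells in this fit.

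**Figure D5:**
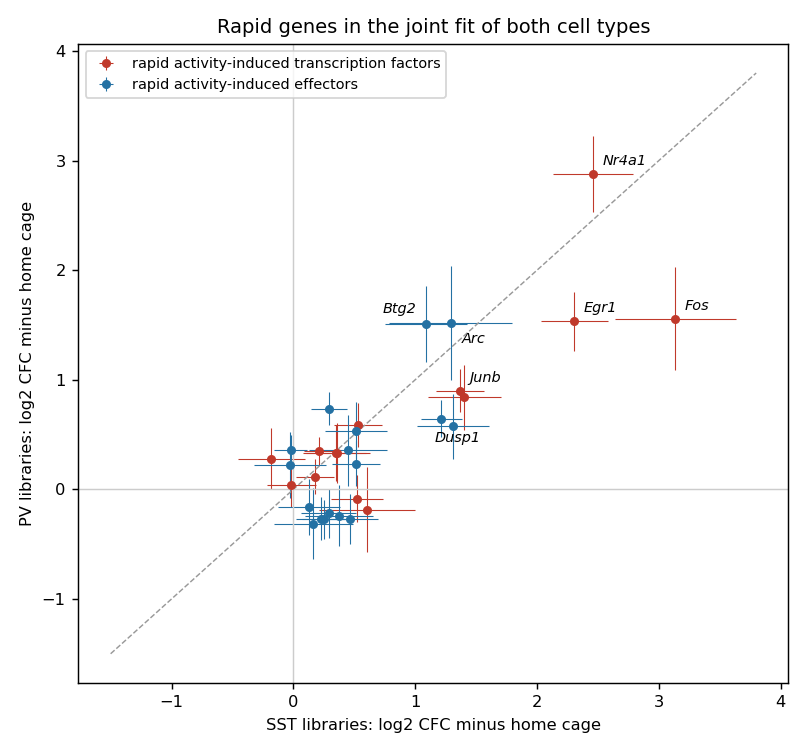
Log2 CFC response in PV libraries against that in SST libraries for 31 rapid genes, from the joint fit, with SE bars and a dashed line of equal response. Nr4a1 lies above the line at 2.88 against 2.46, and Fos, Egr1, Junb and Dusp1 lie below it.

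Ribosomal protein and oxidative phosphorylation genes had median responses of opposite sign in the 2 cell types. Ribosomal proteins had a median response of -0.69 in PV and 0.18 in SST cells, and all 78 differences were negative, 72 of them (92.3%) at an unadjusted p under 0.05 against 8.76% of all genes. Oxidative phosphorylation subunits had medians of -0.71 and 0.14, with 66 of 75 lower in PV at that p. No member passed the adjusted threshold. In batch 3 alone the PV medians were -0.37 and -0.43 without home cage replicate 3. The unconditioned cKO libraries had medians of -0.56 for both lists against the same home cage libraries. Batch and cell type coincide in this comparison and cannot be told apart. Parp1 (1.16 in PV, -0.04 in SST), Vars (0.86 and -0.37) and Npy (-1.03 and 0.16) had among the smallest p-values for a difference, each with an adjusted p of 0.21 (edgeR). Vascular markers had medians of -0.16 and -2.30. Of 22 differences 8 (36.4%, against 6.49% of all genes) were higher in PV at an unadjusted p under 0.05, and 0 passed the adjusted threshold. The SST home cage libraries were uneven, with Flt1 at 21.1, 134 and 80.6 CPM and Cldn5 at 8.22, 79.6 and 27.7 CPM. After CFC they were at 12.1 to 22.7 CPM and 3.97 to 8.49 CPM. For Acta2 (22.7 to 78.6 CPM against 1.94 to 4.02 CPM) and Pdgfrb all 3 SST home cage libraries lay above CFC.

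PTZ, which blocks GABA-A receptors and excites the whole brain, gave a second stimulus in PV cells. Across 14257 genes shared by the tables of batches 3 and 1, the difference of the responses passed for 1 gene, Fut10 (0.00701% of genes), with 2.42 ± 0.36 after CFC and -0.75 ± 0.30 after PTZ (difference 3.17 ± 0.47, adjusted p = 0.0259, edgeR). Fut10 was at 10.9, 11 and 14.6 CPM in the saline libraries and at 7.47, 4.47, 8.49 and 8.48 CPM after PTZ, all above its level of 0.826 to 2.18 CPM in the home cage libraries of batch 3. No gene passed with the compared groups alone, nor without any 1 of the CFC libraries, home cage replicate 2, PTZ replicates 1, 3 or 4, or saline replicates 3 or 4.

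Most rapid genes had larger responses to PTZ than to CFC, though none of these differences passed. Of 28 rapid transcription factors 25 had the larger response to PTZ, 8 of them (28.6%, against 6.06% of all genes) at an unadjusted p under 0.05, with medians of 0.32 for CFC and 1.55 for PTZ. Btg2 responded by 1.49 ± 0.39 to CFC and 3.43 ± 0.41 to PTZ, Fos by 1.54 ± 0.50 and 3.93 ± 0.55, Npas4 by 2.22 and 4.82, and Junb by 0.87 ± 0.31 and 2.65 ± 0.34 (adjusted p of each difference 0.295, edgeR). Nr4a1 was an exception, at 2.85 ± 0.55 and 2.71 ± 0.52 (difference 0.14 ± 0.70), as was Egr1 at 1.51 and 1.50. In this fit the CFC response of Nr4a1 did not pass on its own (adjusted p = 0.109), while its PTZ response did (0.0431, edgeR). Saline replicate 1 stood apart, with 37.3 CPM of Nr4a1 and 342 CPM of Egr1, against 4.64 to 8.33 CPM and 38.2 to 59.1 CPM in the other 2. Arc was also level between the stimuli (1.49 and 1.34), and saline replicate 1 again stood high, at 210 CPM against 36.1 and 75.2 CPM.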

How the data were processed

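RNA sequencing of RiboTag pull-downs was analysed in 6 PV libraries of batch 3, with its 3 cKO libraries, 6 SST libraries of batch 4 and 7 PV libraries of batch 1. The submitters' processing notes name HTSeq 0.11.0, DESeq2, STAR 2.5.2a and cutadapt 1.18, with mm10 and GRCm39 as builds, and tie none of these to a step or batch. For batches 3 and 4 the authors deposited raw read counts for 53465 genes. For batch 1 the authors deposited expected counts for 24371 symbols, of which 11.3% of values were not whole; these were rounded. Totals were 10096035 to 27282912 in batch 3, 15578007 to 20271874 in batch 4 and 12135905 to 20990658 in batch 1, and this number of reads limits what can be seen of genes at few CPM.

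Groups and replicate numbers came from the sample titles. The main test, run in R 4.3.3, was edgeR's quasi-likelihood F test (version 4.0.16), with robust dispersion, TMM scaling, filterByExpr (minimum count 10) and Benjamini-Hochberg adjustment at 0.05, fitted over all 9 libraries of batch 3. The F test gave the SE as the absolute log2 value over the square root of F. Differences of responses were contrasts of contrasts over genes common to 2 tables, fitted jointly. The code was tested on simulated data. Alternatives were no filter, DESeq2 1.42.0, limma voom 3.58.1, DESeq2-type size factors, the compared groups alone, no robust dispersion, leaving out 391 rRNA and mitochondrial genes, the replicate block and each library left out. After the data had been seen, limma voom with sample quality weights was added.

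Named genes were Nr4a1, Fos, Egr1, Pvalb and Sst; per direction the 12 smallest p-values and the 8 largest changes at p under 0.01, for genes averaging 5 CPM or more whose groups did not overlap; the 3 smallest p-values of each list; and, for differences of responses, called genes or the 3 smallest p-values. Other list members named were chosen after their values were seen. The members and all 30 lists were chosen with earlier results of these data known, so no list is independent evidence. Gene positions, exon lengths and GC content came from GENCODE M21 (GRCm38), which matched 15128 of 15150 tested genes, and promoters from RefSeq (GRCm38.p6). The batch 2 and 5 tables were not used here.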

Additional observations from a re-analysis of the deposited data

Results flagged for a closer look

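Fut10 is listed because its response to CFC differed from its response to PTZ within PV cells, by 3.17 on the log2 scale (SE 0.47, adjusted p = 0.0259 with edgeR, 1 of 14257 genes). The CFC response was 2.42 and the PTZ response -0.75. The home cage libraries of batch 3 had 1.95, 0.826 and 2.18 CPM of Fut10, the CFC libraries 8.43 to 10 CPM, the cKO libraries of the same batch 7.11 to 8.25 CPM, and the saline libraries of batch 1 10.9 to 14.6 CPM. The home cage group of batch 3 was thus the lowest of these groups. With 3 libraries per group in batch 3, single outlying libraries were not tested for.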

How the results depend on the processing

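No gene was called in batch 3 with edgeR as described, and the counts depended on the processing. With no filter on low counts 553 genes were called higher and 479 lower after CFC, with DESeq2 221 and 385, and with limma voom and sample quality weights (added after seeing the data) 241 and 283. Limma voom called 1 higher, the compared groups alone 2 (Nr4a1 and Egr1). Leaving out 1 library gave 0 to 738 higher and 0 to 743 lower. The highest counts came without home cage replicate 1, and 2 higher came without home cage replicate 3. The cause of these shifts was not tested. Of calls, 53.6% were higher with no filter and 36.5% with DESeq2.

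For the PV and SST responses, 708 genes differed with no filter and 287 with DESeq2, and 0 to 881 when 1 library was left out (881 without home cage replicate 1, 1 without replicate 3). For CFC and PTZ, 41 genes differed with DESeq2, 0 with the compared groups alone, and 0 to 9 with 1 library left out.

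The labels do not say whether replicate numbers pair the libraries. Same-numbered CFC and home cage libraries had correlations of their deviations of -0.0095, 0.00372 and 0.058. Other pairs ran from -0.0478 to 0.0554. With 3 libraries per group these values cannot decide whether libraries were paired. With the replicate block 2 genes were called higher (Nr4a1 and Parp1), 0 genes differed between PV and SST responses, and 0 differed between CFC and PTZ.

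Over 121 named results, 1524 of 1778 alternative values kept their direction and side of the threshold, 252 crossed to a call in the same direction, and 2 turned direction: Pvalb was at 0.0312 without CFC replicate 2 and at 0.0358 without home cage replicate 2, within a leave-one-out range of -0.131 to 0.0358. The log2 difference of Nr4a1 ran from 2.65 to 3.25 with 1 library left out. Of 449 alternative medians of the 30 lists, 414 moved by less than their spread and 35 by more.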

Other observations

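Aqp4, the astrocyte water channel (log2 1.80), was in the same range in the cKO libraries (4.34 to 8.29 CPM) as after CFC (5.16 to 11.4 CPM). Prox1, a factor of granule cells and of some interneurons, was at 0.341, 1.65 and 1.09 CPM in the home cage libraries, at 3.64, 2.88 and 3.8 CPM after CFC and at 5.28, 3.82 and 6.51 CPM in cKO.

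Genes of the amino acid response driven by ATF4 had a median of -0.08 after CFC. At an unadjusted p under 0.05, 2 of 22 were higher and 2 lower (9.09% each), near the 9.62% and 9.08% of all genes. The median of these genes in cKO against the same home cage libraries was 1.25. Their summed level was 946.6 to 1030 CPM in the home cage, 941.6 to 980.9 CPM after CFC and 1803 to 2070 CPM in cKO.

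The 7 mitochondrially encoded mRNAs tested were all below 0 after CFC (median -0.70, 0 of 7 at an unadjusted p under 0.05). Their summed level ran from 553.2 to 1412 CPM in the home cage and from 295.6 to 948.9 CPM after CFC, ranges that overlap, and without home cage replicate 3 the median was -0.17.

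Microglial markers had a median of 0.03 after CFC and 1.72 after PTZ in the joint fit, with all 15 differences lower for CFC. Of these, 3 (20%, against 6.06% of all genes) had an unadjusted p under 0.05, and 0 passed the adjusted threshold (edgeR). PTZ replicate 4 stood high. Ctss was at 67.5 CPM there and at 3.66, 10.6 and 9.09 CPM in the other PTZ libraries. C1qc was at 44.4 CPM there and at 6.34, 7.75 and 3.45 CPM in the others. Saline replicate 1 had 12.5 CPM of Ctss and 9.44 CPM of C1qc. The part of single libraries in these medians was not tested.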
